A study of Arabidopsis thaliana with 12 samples.

Results

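BGAL14, NUDT24 and ATSAC1B are 3 Arabidopsis thaliana genes whose reads were absent or nearly absent from wild-type seedlings and present in xrn3-8 seedlings. They are described here with the genes AT4G38580 and AT4G38600, AT5G19460 and AT5G19480, and AT5G66010 and AT5G66030 that lie beside them, which makes 9 genes of the 37184 counted. The 3 raised genes were chosen by their RNA-seq counts in xrn3-8 against Col-0, and the 6 neighbours by position. For these 9 genes every RNA-seq value below comes from that same contrast and is given as a description, with no p-value, and their RNA-seq calls are counted without reading anything from them. Other genes, of the family lists, were tested in RNA-seq. The small RNA libraries took no part in the choice, so small RNA was tested.

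The compared groups were xrn3-8, which carries a mutant allele of the exoribonuclease gene XRN3, and wild-type Col-0. RNA-seq was made from whole seedlings of 21 days grown on soil, and small RNA sequencing from whole seedlings of 14 days grown on MS plates, with 3 libraries per genotype and assay. Libraries of whole seedlings mix all cell types, so fewer cells of a type and less RNA per cell cannot be told apart. Genes held 61604670 to 79845518 reads in each RNA-seq library and 5873199 to 7122245 in each small RNA library. XRN3 itself (AT1G75660) held 1398, 1669 and 1505 RNA-seq reads in xrn3-8 and 3140, 3242 and 2878 in Col-0, so its RNA was lowered and not lost in the mutant. The summed level of 3 leaf markers was 4171 to 5100 CPM in xrn3-8 and 6615 to 7287 CPM in Col-0, and that of 4 root markers 4.71 to 6.13 CPM in xrn3-8 and 3.63 to 4.38 CPM in Col-0. CPM are reads per 1000000 after scaling for library size and composition. Nearly all of the root sum was SCR, with a mean of 5.40 CPM in xrn3-8 and 4.03 CPM in Col-0. Of the other root markers CASP1 held 49 reads in xrn3-8 and 5 in Col-0, EXPA7 held 1 and 0, and SHV2 held 10 and 1. The summed level of the flower markers AP3 and PI was 1.13 to 2.70 CPM in xrn3-8 and 0.295 to 0.456 CPM in Col-0, and the pair went opposite ways. PI held 432 reads in xrn3-8 and 30 in Col-0, and AP3 held 14 reads in xrn3-8 and 43 in Col-0. The part of these marker differences in the values below was not tested.

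XRN3 is a nuclear enzyme that degrades RNA from its 5′ end. When a nascent transcript is cleaved at its polyadenylation site, polymerase goes on transcribing, and enzymes of this family degrade the uncapped downstream RNA in the course of termination. Where termination is incomplete, transcription can run from a gene into the next one, and a count table then assigns such reads to the gene they fall in. The series' title names defective termination in the mutant and its effect on coding genes. At these 3 loci the question is which neighbour held enough reads to supply those of the raised gene, and the values below set the reads of each raised gene beside those of its neighbours. The tables hold a read count per gene and per window, with no position or strand of a read. The orientation of the genes was not used either, and the source of the reads was not tested.

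BGAL14 (AT4G38590) belongs to the beta-galactosidases, which release galactose from cell wall polysaccharides and other glycans. It lies on chromosome 4 between AT4G38580, named FP6 or HIPP26, and AT4G38600, named KAK or UPL3. FP6 encodes a small isoprenylated protein with a heavy metal-binding domain, and KAK encodes a HECT-type ubiquitin ligase that restricts trichome branching and endoreduplication. BGAL14 held 206, 218 and 224 RNA-seq reads in xrn3-8, against 0, 1 and 0 in Col-0. FP6 held 648, 701 and 700 reads in xrn3-8 and 348, 370 and 344 in Col-0. KAK held 8354, 8610 and 8079 reads in xrn3-8 and 3958, 4131 and 3642 in Col-0. For all 3 genes of this locus every xrn3-8 library lay above every Col-0 library.

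Scaled for library size, BGAL14 stood at 2.92 ± 0.26 CPM in xrn3-8 and 0.0051 ± 0.0087 CPM in Col-0 (SD, n = 3 each). FP6 stood at 9.21 ± 0.75 CPM in xrn3-8 and 5.60 ± 0.20 CPM in Col-0, a log2 fold change of 0.72 (SE 0.11). KAK stood at 113 ± 14.7 CPM in xrn3-8 and 61.8 ± 0.55 CPM in Col-0, a log2 fold change of 0.87 (SE 0.10). CPM are not divided by gene length, so levels are compared between libraries and not between genes, and differences in CPM set side by side below are numbers of reads. Both neighbours of BGAL14 were thus higher in xrn3-8, by 3.61 CPM for FP6 and 51.2 CPM for KAK, against a difference of 2.91 CPM for BGAL14 itself. In numbers of reads, the gain of either neighbour was larger than that of BGAL14.

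NUDT24 (AT5G19470) and its neighbour NUDT20 (AT5G19460) both encode Nudix hydrolases, enzymes that cleave diphosphate bonds in nucleotide sugars, coenzymes and related compounds. They lie side by side on chromosome 5. NUDT24 held 319, 253 and 233 RNA-seq reads in xrn3-8, against 1, 1 and 1 in Col-0. NUDT20 held 767, 1104 and 1010 reads in xrn3-8 and 864, 813 and 743 in Col-0. AT5G19480, to which the reference gives no name, held 516, 816 and 829 reads in xrn3-8 and 576, 647 and 546 in Col-0. The groups of NUDT24 did not overlap, while the scaled counts of both neighbours overlapped between the genotypes.

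In CPM, NUDT24 stood at 3.68 ± 1.11 in xrn3-8 and 0.016 ± 0.00092 in Col-0 (SD, n = 3 each). NUDT20 stood at 12.8 ± 0.88 in xrn3-8 and 12.7 ± 0.59 in Col-0, a log2 fold change of 0.01 (SE 0.09). AT5G19480 stood at 9.55 ± 1.34 in xrn3-8 and 9.31 ± 0.42 in Col-0, a log2 fold change of 0.04 (SE 0.12). The direction of these small differences was not stable: NUDT20 stood at -0.03 without xrn3-8 replicate 2 and at -0.01 without Col-0 replicate 2 or replicate 3, and AT5G19480 at -0.03 without xrn3-8 replicate 3. The difference between genotypes was 3.67 CPM for NUDT24, against 0.0571 CPM for NUDT20 and 0.237 CPM for AT5G19480. Here the raised gene gained more CPM than either neighbour.

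AT5G19480 is not the nearest annotated gene on its side. In the reference, of the TAIR10.1 assembly, AT5G19473 lies between NUDT24 and AT5G19480. AT5G19473 was listed with 0 reads in all 6 RNA-seq libraries, in its window, and in all 6 small RNA libraries. Its 0 reads stood beside 805 reads of NUDT24 over the xrn3-8 libraries. This gene was looked at after its values were seen. The gene next to NUDT24 on the other side, NUDT20, held more reads than NUDT24 in every xrn3-8 library.

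ATSAC1B (AT5G66020) encodes a SAC-domain phosphatase, which removes phosphate from phosphoinositides, the signalling lipids that mark membrane compartments. It lies on chromosome 5 between AT5G66010, to which the reference gives no name, and AT5G66030, named ATGRIP, a Golgi protein with a GRIP domain. ATSAC1B held 156, 132 and 208 RNA-seq reads in xrn3-8, against 0, 0 and 0 in Col-0. AT5G66010 held 127, 68 and 68 reads in xrn3-8 and 51, 65 and 79 in Col-0. ATGRIP held 3088, 3687 and 3518 reads in xrn3-8 and 2887, 2926 and 2815 in Col-0. The groups of ATSAC1B did not overlap, and the scaled counts of its neighbours did.

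ATSAC1B stood at 2.23 ± 0.53 CPM in xrn3-8, with no read in Col-0 (SD, n = 3). AT5G66010 stood at 1.23 ± 0.65 CPM in xrn3-8 and 1.04 ± 0.27 CPM in Col-0, a log2 fold change of 0.23 (SE 0.37). That difference rested on xrn3-8 replicate 1, which held 127 of the 263 mutant reads of AT5G66010, and without it the log2 fold change was -0.28. ATGRIP stood at 46.1 ± 1.72 CPM in xrn3-8 and 45.5 ± 1.75 CPM in Col-0, a log2 fold change of 0.02 (SE 0.07) that was -0.01 without xrn3-8 replicate 1. ATSAC1B gained 2.23 CPM, against 0.191 CPM for AT5G66010 and 0.585 CPM for ATGRIP.

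**Figure D1:**
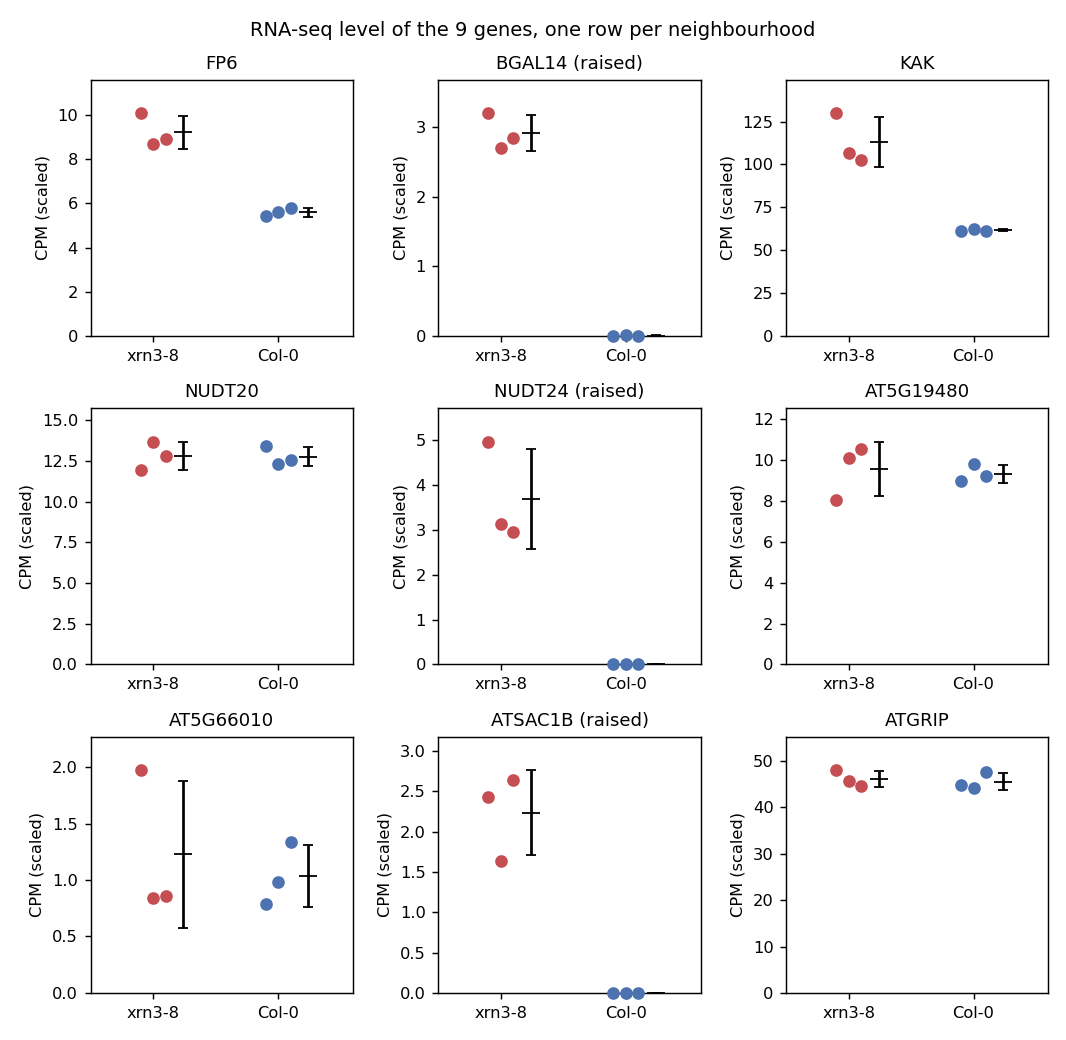
Each panel plots the scaled RNA-seq level (CPM, vertical axis from 0) of a gene in 3 xrn3-8 libraries (red) and 3 Col-0 libraries (blue), with the mean and SD in black; each row is a locus with its raised gene in the middle. FP6 and KAK are higher in xrn3-8 together with BGAL14 (9.21 against 5.60 CPM and 113 against 61.8 CPM), while the neighbours of NUDT24 and ATSAC1B overlap between the genotypes.

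All 9 genes passed the filter on low counts, and 5 were called higher in xrn3-8 and 0 lower by edgeR's quasi-likelihood test at an adjusted p of 0.05. The 5 were the 3 raised genes with FP6 and KAK. Of all 20653 genes tested 16.0% were called higher and 17.3% lower. The same 5 genes had scaled counts with no overlap between the genotypes, higher in xrn3-8, which held for 24.2% of all genes tested. The genes were chosen on this contrast and the raised genes passed the filter through xrn3-8 alone, so nothing is read from these counts. Over each group of 3 libraries the ratio of scaled counts was 549 for BGAL14 (exact 95% interval 98.3 to 21735), which rests on 1 Col-0 read, in replicate 2, without which no Col-0 read of BGAL14 is left. It was 228 for NUDT24 (77.6 to 1106). ATSAC1B had no Col-0 read and was at least 140-fold higher against a floor of 3 reads over the Col-0 group, while the exact 95% interval of its ratio has a lower limit of 114. These intervals and floors cover counting error only.

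To set a raised gene beside a neighbour, its reads were expressed per 100 reads of that neighbour in the same xrn3-8 library. BGAL14 held 31.8, 31.1 and 32.0 reads per 100 of FP6, and 2.47, 2.53 and 2.77 per 100 of KAK. NUDT24 held 41.6, 22.9 and 23.1 reads per 100 of NUDT20, and 61.8, 31.0 and 28.1 per 100 of AT5G19480. ATSAC1B held 123, 194 and 306 reads per 100 of AT5G66010, and 5.05, 3.58 and 5.91 per 100 of ATGRIP. AT5G66010 was therefore the neighbour with fewer reads than its raised gene in every xrn3-8 library, and the other 5 neighbours held more reads than theirs. Read counts grow with gene length, and no lengths of the files' build are used here, so these are shares of reads and not relative levels.

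Over the mutant libraries BGAL14 had a mean of 31.6 ± 0.47 reads per 100 reads of FP6 (SD, n = 3). Against KAK the mean was 2.59 ± 0.16. NUDT24 was highest, at 4.96 CPM, in xrn3-8 replicate 1, where both of its neighbours were at their lowest, 11.9 CPM for NUDT20 and 8.02 CPM for AT5G19480. Its share was 29.2 ± 10.7 per 100 reads of NUDT20 and 40.3 ± 18.7 per 100 of AT5G19480. ATSAC1B was lowest in xrn3-8 replicate 2 at 1.64 CPM, and its share against ATGRIP was 4.85 ± 1.18. With 3 mutant libraries these spreads are given as values, and no relation between genes was tested.

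In Col-0 the neighbours were expressed while the raised genes held almost no reads. NUDT20 and NUDT24 are members of the same family, and NUDT24 held 1 read in each Col-0 library beside 864, 813 and 743 of NUDT20, which is 0.116, 0.123 and 0.135 reads per 100. The annotated spans of BGAL14 and KAK overlap in the reference, and BGAL14 held 1 read in Col-0 beside 11731 of KAK over the 3 libraries. ATSAC1B held 0 reads in Col-0 beside 8628 of ATGRIP. Reads that lie in the overlap of annotated genes may be tallied as ambiguous and be in neither count, so these values set no limit on shared reads, whose part was not tested.

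As a share of all reads of the 3 genes at its locus, BGAL14 took 2.24% (Wilson 95% interval 1.95 to 2.56), 2.29% (2.01 to 2.61) and 2.49% (2.19 to 2.83) in the xrn3-8 libraries. NUDT24 took 19.9% (18.0 to 21.9), 11.6% (10.4 to 13.1) and 11.2% (9.96 to 12.7). ATSAC1B took 4.63% (3.97 to 5.39), 3.40% (2.87 to 4.01) and 5.48% (4.80 to 6.25). In the Col-0 libraries the shares were at most 0.022% for BGAL14, 0.078% for NUDT24 and 0 for ATSAC1B, where 0 reads allow a share of up to 0.104% by the floor of 3 reads and up to 0.133% by the Wilson interval. The intervals cover counting error only and not the spread between plants. For NUDT24 xrn3-8 replicate 1 had the highest share, and for ATSAC1B replicate 3 had the highest and replicate 2 the lowest.

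**Figure D2:**
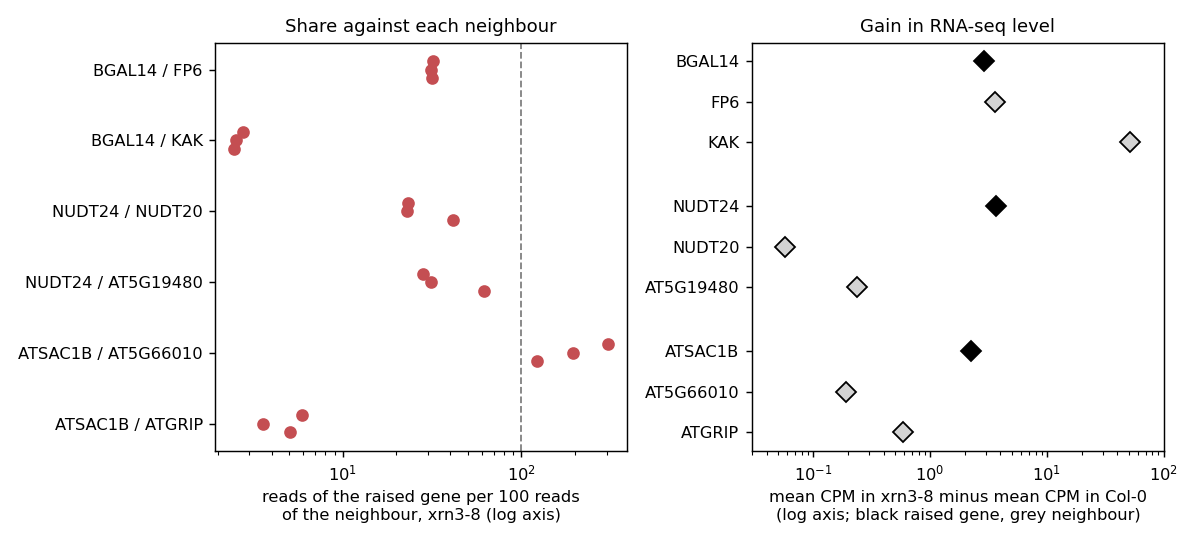
The left panel plots the reads of each raised gene per 100 reads of a neighbour in the 3 xrn3-8 libraries (log axis, dashed line at 100), and the right panel the mean CPM in xrn3-8 minus that in Col-0 for the 9 genes (log axis, black for raised genes, grey for neighbours). AT5G66010 is the neighbour to the right of the line (123 to 306 reads of ATSAC1B per 100), and FP6 and KAK are the neighbours with a larger gain than their raised gene.

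A second RNA-seq table counted the same genes together with windows, each named 500 plus a gene identifier. No source used here says on which side of its gene a window lies, so a window could face the raised gene or the gene beyond. None of the 9 windows held enough reads to pass the filter, and 7 held any read. The window of NUDT20 held 7, 8 and 10 reads in xrn3-8 and 2, 3 and 2 in Col-0. That of KAK held 5, 5 and 3 reads in xrn3-8 and 1, 0 and 0 in Col-0. That of AT5G66010 held 2, 2 and 10 reads in xrn3-8 and 0, 0 and 2 in Col-0. The windows of NUDT20 and KAK lay higher in xrn3-8 without overlap, and that of AT5G66010 overlapped after scaling.

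The raised genes differed in their own windows. The window of ATSAC1B held 8, 4 and 16 reads in xrn3-8 and 0 in each Col-0 library, without overlap. The window of BGAL14 held 0, 0 and 2 reads in xrn3-8 and 0 in each Col-0 library. The window of NUDT24 held 0 reads in all 6 libraries. In the second table the genes themselves held 446 reads for ATSAC1B, 607 for BGAL14 and 799 for NUDT24 over the xrn3-8 libraries. Per 100 of these gene reads, the windows held 6.28 reads for ATSAC1B, 0.329 for BGAL14 and 0 for NUDT24, where 0 reads allow up to 0.375. The median over the 18236 tested genes with a window was 0.440, and 7.95% of those genes lay above ATSAC1B. NUDT24 and ATSAC1B thus differed in whether any read was counted in the gene's own window.

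The windows of the other neighbours were nearly empty in both genotypes. FP6 had 0 window reads in all 6 libraries beside 2049 gene reads in xrn3-8 and 1062 in Col-0. The window of ATGRIP held 1 read in xrn3-8 and 0 in Col-0, and that of AT5G19480 held 0, 4 and 2 in xrn3-8 and 2, 0 and 2 in Col-0. In all, 3 of the 7 windows with any read, those of KAK, NUDT20 and ATSAC1B, were higher in xrn3-8 with no overlap. Among the 19029 windows of the series with any read the same held for 30.1%, and as the windows share their libraries with the choice of genes, nothing is read from the count.

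The tables of gene counts themselves differ, because the first counted genes together with assembled loci and the second together with windows. A read that lies in several features is tallied as ambiguous and is in no gene count. The ambiguous tally was 2149454 to 2965315 reads per library in the first table and 1068371 to 1585575 in the second. ATSAC1B had 24, 7 and 19 fewer reads in the second table than in the first in xrn3-8, 10.1% of its reads. BGAL14 had 16, 12 and 13 fewer in xrn3-8, 6.33% of its reads. NUDT24 had 0, 6 and 0 fewer in xrn3-8, 0.745%. In Col-0 these genes held 0, 1 and 3 reads in either table, in that order. With almost no Col-0 read to lose, the genotypes cannot be compared in this difference for the raised genes. The median over 20651 tested genes was 0.00%, with a middle range of -1.28% to 0.53%, and 2.42% of genes had a larger share than ATSAC1B and 3.75% a larger share than BGAL14. ATSAC1B and BGAL14 thus differed between the tables in every xrn3-8 library, and NUDT24 in 1 of them.

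NUDT20 went the other way. It had 65, 88 and 76 more reads in the window table than in the table with assembled loci in xrn3-8, and 35, 44 and 41 more in Col-0. These were 7.00% to 7.81% of its reads in xrn3-8 and 3.89% to 5.23% in Col-0. How many of all genes differ between the genotypes in this way was not counted, so nothing is read from that difference. On the scale used for ATSAC1B and BGAL14, the share of NUDT20 in xrn3-8 was -7.95%, and 88.4% of genes had a value above it. With the window table in place of the other, the log2 fold change of NUDT20 was 0.05 in place of 0.01. Positions of assembled loci were not used here, so no locus beside NUDT20 is named.

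**Figure D3:**
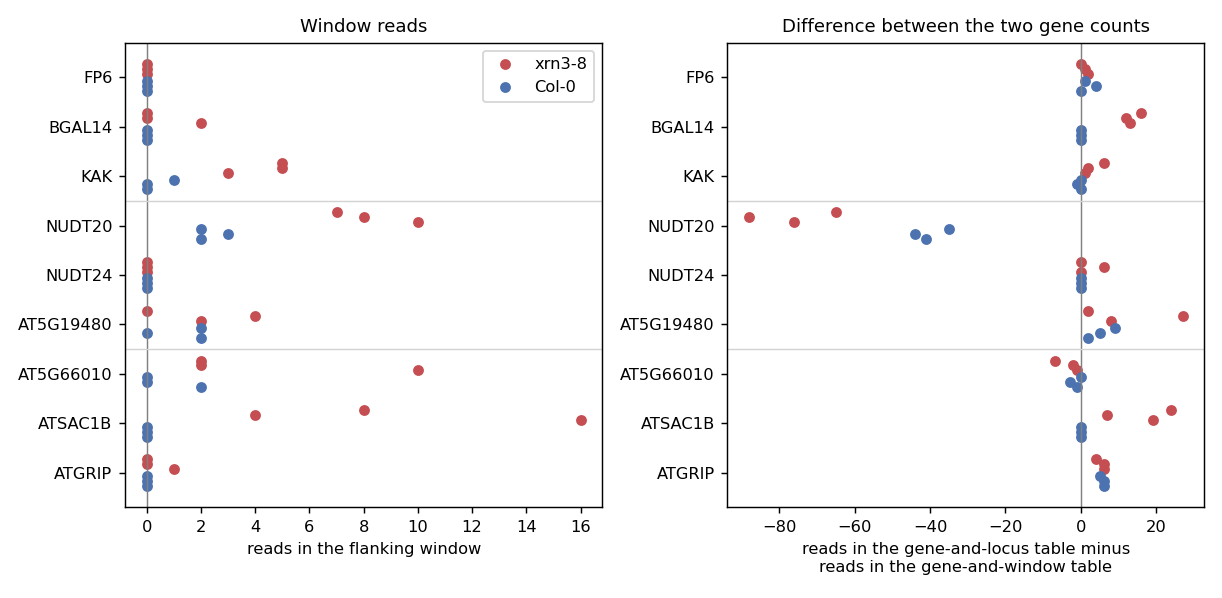
The left panel plots RNA-seq reads in the flanking window of each gene, and the right panel the reads of each gene in the table with assembled loci minus those in the table with windows, for 3 xrn3-8 libraries (red) and 3 Col-0 libraries (blue); grey lines part the 3 loci. The window of ATSAC1B reaches 16 reads in xrn3-8 while that of NUDT24 is at 0, and NUDT20 is the gene with the most reads missing from the table with assembled loci (up to 88 in xrn3-8 and 44 in Col-0).

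Small RNA over the 9 genes was measured in other libraries and was tested. Plants cut double-stranded RNA into small RNAs that can silence genes, so a transcript that appears in a mutant may or may not be accompanied by them. The 3 raised genes had few small RNA reads in either genotype. BGAL14 held 9, 6 and 7 reads in xrn3-8 and 4, 0 and 5 in Col-0. NUDT24 held 1, 0 and 1 reads in xrn3-8 and 0, 2 and 0 in Col-0. ATSAC1B held 1, 1 and 2 reads in xrn3-8 and 0, 2 and 1 in Col-0. Their sum was 28 reads in xrn3-8 and 14 in Col-0, of which BGAL14 held 22 and 9. XRN3 itself held 538823, 573638 and 706264 small RNA reads in xrn3-8 and 276, 790 and 350 in Col-0, and the part of that difference in library composition in these values was not tested.

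KAK was the 1 gene of the 9 that passed the filter on low counts in the small RNA libraries. It held 30, 16 and 17 reads in xrn3-8 and 18, 28 and 25 in Col-0, which overlap. Its log2 fold change was -0.17 (SE 0.41, edgeR adjusted p = 0.92, from 0.40 to 1.0 over 11 alternatives). Thus 0 of the 1 member tested was called, where 7.01% of 9101 genes were called, 6.02% higher and 0.989% lower. For KAK the unadjusted p of edgeR was 0.70, and DESeq2 gave an adjusted p of 1.0.

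Without the filter all 9 genes could be fitted, and edgeR called 0 of them at an adjusted p of 0.05, where 4.39% of 31876 genes were called. BGAL14 had a log2 fold change of 1.16 (SE 0.66, unadjusted p = 0.078, adjusted p = 0.52 by edgeR). AT5G19480 held 7, 7 and 20 reads in xrn3-8 and 5, 3 and 6 in Col-0, a log2 fold change of 1.13 (SE 0.54, unadjusted p = 0.038, adjusted p = 0.37 by edgeR). Of the 34 mutant reads of AT5G19480, xrn3-8 replicate 3 held 20. BGAL14 and AT5G19480 were 2 of the 9 genes with no overlap of scaled small RNA counts, higher in xrn3-8, which held for 11.2% of the 31876 genes with any read. AT5G66010, with 5, 3 and 10 reads in xrn3-8 and 1, 1 and 6 in Col-0, overlapped. The summed counts of BGAL14 gave a ratio of 2.43 (exact 95% interval 1.07 to 5.99), of NUDT24 0.993 (0.072 to 13.7) and of ATSAC1B 1.32 (0.22 to 9.04), so that at this depth changes of several fold in NUDT24 or ATSAC1B small RNA could not be detected. These intervals pool the reads of each genotype and cover counting error only, not the spread between plants.

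FP6 held 4, 4 and 2 small RNA reads in xrn3-8 and 5, 2 and 7 in Col-0, and ATGRIP 7, 4 and 4 in xrn3-8 and 6, 8 and 5 in Col-0. NUDT20 held 2, 1 and 0 reads in xrn3-8 and 0, 2 and 0 in Col-0. The small RNA reads of these 3 neighbours overlapped between the genotypes. The plants of the assays differ in age and medium, so the small RNA values stand beside the RNA-seq values without being paired with them.

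**Figure D4:**
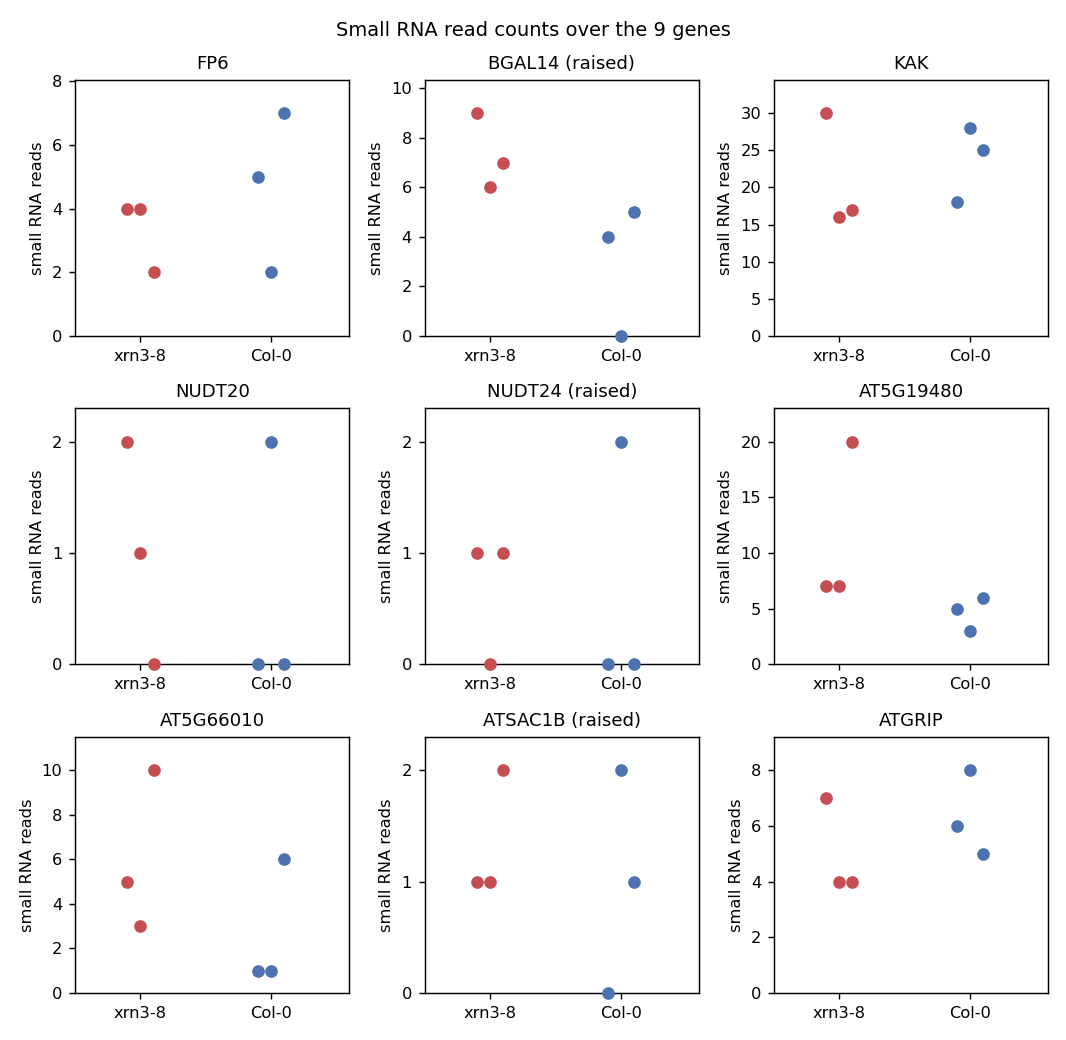
Each panel plots small RNA reads over a gene (vertical axis from 0) in 3 xrn3-8 libraries (red) and 3 Col-0 libraries (blue). The raised genes NUDT24 and ATSAC1B have 0 to 2 reads per library in both genotypes, and BGAL14 has 6 to 9 in xrn3-8 and 0 to 5 in Col-0.

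The genes whose RNA-seq counts were most like those of the raised genes were taken by the distance over the 6 libraries on a log2(CPM + 0.1) scale among 37175 other genes. For ATSAC1B they were AT2G41451, with 168, 137 and 213 reads in xrn3-8 and 1, 0 and 0 in Col-0 (distance 0.240), and AT4G33860 (distance 0.350). For BGAL14 they were AT4G25090 (distance 0.736) and AT2G41451 (distance 0.762). For NUDT24 they were AT2G41445, with 335, 220 and 305 reads in xrn3-8 and 0 in Col-0 (distance 0.566), and AT4G25090 (distance 1.06). The median distance of all genes was 7.84 from ATSAC1B, 8.51 from BGAL14 and 9.04 from NUDT24. All 4 of these genes were, like the raised genes, at 0 or 1 read per Col-0 library, which follows from a distance that includes those libraries.

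Relatives of the raised genes were counted from family lists, to be read beside the 16.0% of all tested genes called higher and the 17.3% called lower. Of 16 other beta-galactosidase genes 13 were tested by edgeR, of which 2 were higher and 4 lower in the mutant; their median log2 fold change was -0.03, and that of all genes tested 0.01. BGAL10, which acts on xyloglucan, rose, with 55.2 ± 2.18 CPM in xrn3-8 and 25.0 ± 2.71 CPM in Col-0. There were 2 other beta-galactosidase genes with at most 3 reads over the Col-0 libraries, and these held 6 reads together in xrn3-8. BGAL14 was chosen by its reads in xrn3-8, so it is not compared with them. Of 22 other Nudix hydrolase genes, all tested, 3 were higher and 4 lower (median 0.08). NUDT8 fell, with 61.0 ± 9.17 CPM in xrn3-8 and 162 ± 15.1 CPM in Col-0, and NUDT21 rose, with 60.0 ± 15.7 CPM in xrn3-8 and 26.8 ± 9.05 CPM in Col-0. Of the called genes, BGAL4, MUM2 and NUDT4 kept their calls in 7 of 12 alternatives, NUDX19 in 8 and NUDT10 in 4, while the others named or counted in these families kept theirs in all 12. No other Nudix hydrolase gene was silent in Col-0 by the limit of 3 reads.

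Of 9 other genes with a SAC number in the reference 1 was higher and 1 lower (median -0.05), and none was silent in Col-0 by that limit. The lower gene was AT1G17340, with a log2 fold change of -0.49 (SE 0.07). The higher gene was SAC51, a transcription factor gene that shares only the letters of its name with the phosphatases. The list was taken by name, so its count and median are not those of phosphatases alone. Whether its other genes, such as SAC52, encode phosphatases was not checked. SAC51 was also the 1 higher gene of 3 tested in small RNA, with 13, 22 and 23 reads in xrn3-8 and 8, 5 and 8 in Col-0 (log2 fold change 1.43, SE 0.34, edgeR adjusted p = 0.049). That call was lost under all 11 alternatives, with adjusted p from 0.051 to 0.20 and log2 fold changes from 1.25 to 1.57. Of all 9101 genes tested in small RNA 6.02% were called higher. Among relatives of the neighbours, 2 of 6 other HECT ubiquitin ligase genes were higher and 0 lower (median 0.16), namely UPL1 at 0.78 and UPL2 at 0.74, beside KAK at 0.87, where 16.0% of all genes tested were higher. Of 5 other heavy metal-associated isoprenylated protein genes 0 were higher and 1, HIPP20, lower (median 0.17), a call kept in 7 of 12 alternatives. Mediator subunit genes were listed as well, though by its names that list holds none of the genes described here. They were higher in 6 and lower in 0 of 17 (median 0.17), where 16.0% of all genes were higher and 17.3% lower. Of those 6 calls PFT1 and MED8 kept theirs in 8 of 12 alternatives, MED9 in 9 and RFR1 in 11. In small RNA no gene was called among the 5 beta-galactosidase, 1 Nudix hydrolase, 2 ubiquitin ligase and 2 Mediator genes tested. Among all genes tested in small RNA 7.01% were called in either direction. None of the isoprenylated protein genes passed the filter.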

How the data were processed

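RNA-seq was measured in 6 libraries and small RNA in 6 others, 3 per genotype and assay. The libraries of each genotype are called biological replicates in the series' design text. The authors deposited whole-number read counts per gene and per window, not normalized. HISAT2 or Bowtie, with HTSeq, DESeq2 and bedtools and the TAIR10 build, are named per the submitters' processing notes, with no settings or versions stated. The RNA-seq kit was a stranded, ribosomal RNA-depleted one, per the labels' protocols, and no source used here states the strand setting of the counting. Counter tallies, 21.6% to 26.1% of reads in RNA-seq and 74.6% to 77.1% in small RNA, entered neither library sizes nor tests. The tables of assembled loci in small RNA were not used here.

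Counts were fitted with edgeR 4.0.16 (quasi-likelihood, two-sided, Benjamini-Hochberg over all genes, threshold 0.05) in R 4.3.3, after filterByExpr with a minimum count of 10 and TMM scaling. Windows were scaled by the gene table. CPM are counts per 1000000 of scaled library size. The SE of a log2 fold change is its size divided by the root of the F statistic. Alternatives were DESeq2 1.42.0, RLE factors, total counts, no filter, a replicate block, leaving out each library, windows scaled on themselves, gene counts of the window table and AT5G19473 as a neighbour. The last 2 were chosen after seeing the data. The fits were tested on simulated data. Names and gene order came from a TAIR10.1 reference table that matched 36899 of 37184 identifiers, and it gives no strand. All 9 members were named. As most alike, the 2 nearest genes of each raised gene were named, and from each family list up to 4 called genes of at least 2-fold, with further called genes of a list named after their values were seen. Family lists were taken by symbol or synonym: BGAL, NUDT, SAC, UPL, HIPP and MED numbers. Members and lists were chosen with earlier results of these data known.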

Additional observations from a re-analysis of the deposited data

How the results depend on the processing

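Over 12 alternatives the RNA-seq log2 fold changes were 0.65 to 0.87 for FP6 and 0.76 to 1.02 for KAK. The raised genes were chosen on the same counts, so their calls under other settings are no sign of stability. BGAL10, NUDT8, NUDT21, UPL1 and UPL2 kept their RNA-seq calls under all 12, while 10 other called genes of the family lists lost theirs under at least 1: NUDT10, NUDT4, BGAL4, MUM2, HIPP20, PFT1, MED8, NUDX19, MED9 and RFR1. The other 4 neighbours were called under none of them, and KAK small RNA ranged from -0.64 to 0.02. Total counts shifted the median log2 fold change of RNA-seq genes to 0.16 and gave 5458 higher and 2215 lower genes (71.1% in place of 47.9% of calls higher, from 3296 and 3582). Of 2925 windows 1441 were higher and 47 lower, against 804 and 301 with DESeq2, 686 and 313 when scaled on themselves (72.8% and 68.7% in place of 96.8% of calls higher), and 3504 higher without the filter. Small RNA calls, 548 higher and 90 lower, were 1020 and 378 without the filter, and with 1 library left out 288 to 498 higher and 37 to 131 lower. Whether replicate numbers paired the libraries was not tested. In RNA-seq the correlations of same-numbered libraries, 0.058, 0.145 and 0.103, lay above those of differently numbered ones, -0.115 to 0.016. In small RNA they were -0.452, 0.038 and -0.157, against -0.306 to 0.406 for differently numbered ones. With the number as a replicate block, RNA-seq had 3419 higher and 3865 lower genes, and small RNA had 171 higher and 24 lower. No call of the 9 genes changed, while SAC51 lost its small RNA call. In the window table BGAL14 held a mean of 2.19% of the reads of its locus in place of 2.34%, 29.7 reads per 100 of FP6 in place of 31.6, and 2.43 per 100 of KAK in place of 2.59. With AT5G19473 in place of AT5G19480, NUDT24 held 22.3% in place of 14.3%, by construction, since AT5G19473 had no reads. The windows and the small RNA of the raised genes were limited by depth.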
